A study of Homo sapiens with 10 samples.

Results

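The genes described here are MYC with its dimerisation partners and the nucleolar proteins that build ribosomes, a listed set of 36 genes. They were measured in C4-2, a human prostate cancer cell line. Members were matched to the Illumina BeadChip by Entrez ID, and 34 of the 36 had a named probe, out of 18665 named genes in all, with 54 probes between them. GNL3 and EBNA1BP2 were not analysed here. Total RNA was measured on 10 arrays of 4 groups. The first group, nucARRB1 (2 arrays), expressed the scaffold protein β-arrestin 1 (ARRB1) fused to AcGFP and to 3 nuclear localisation sequences. The wtARRB1 group (2 arrays) expressed the AcGFP fusion without them, in both cytoplasm and nucleus. The GFP control (3 arrays) carried the AcGFP vector alone, and parental C4-2 cells (3 arrays) carried no construct. All 3 stable groups, GFP control included, were kept in G418 at 0.8 mg/ml by their labels. The study's methods give a lower concentration for selection. Parental cells were not a stable line, so vector, AcGFP and G418 cannot be told apart in the comparison of GFP control with parental cells. All cells grew in serum-containing medium with no treatment. The labels call the arrays biological replicates. They do not say whether a group was 1 line or several, a line 1 clone, or the arrays separate cultures. Each array has its own name in the sample descriptions, and the study's blots included several nucARRB1 cell lines. A group called a line below may thus hold several. The p-values therefore measure the spread between these arrays only. The comparisons ask what nuclear and unrestricted ARRB1 change in the expression of these genes, and what the vector line itself changes.

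MYC is a transcription factor that binds DNA as a dimer with MAX, at the hexamer CACGTG known as the E-box, and MXD1, MXD4 and MXI1 compete with MYC for MAX and repress from the same sites. The nucleolus is where RNA polymerase I transcribes ribosomal RNA, where small nucleolar ribonucleoproteins (snoRNPs) guide its chemical modification, and where the precursors of the large and small ribosomal subunits are put together. Many genes for these proteins are known MYC targets, and their expression is tied to growth in proliferating cells, prostate cancer included.

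The E-box was looked for in the promoters of the members, because MYC, MAX and the MXD proteins all bind it. A RefSeq promoter window of 300 bases (250 before the transcript start and 50 from it, build GRCh38.p14) was matched for 29 of the 36 members, and 9 of them (31.0%) held CACGTG, which reads the same on both strands. Among all 27305 RefSeq windows, 7.43% held it, and among the 14780 windows of genes on the array 8.71% did. The 8 stretches below are those of members with a probe. The E-box is in capitals, and each stretch is written 5′ to 3′ on the strand of its gene.
FBL: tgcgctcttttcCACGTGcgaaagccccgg
NOP2: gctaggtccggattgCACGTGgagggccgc
BYSL: ttcttcagtcccCACGTGcgatccttcccg
MXD4: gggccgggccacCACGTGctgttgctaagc
RRP9: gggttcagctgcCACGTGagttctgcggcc
PES1: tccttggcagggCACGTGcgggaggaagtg
UTP20: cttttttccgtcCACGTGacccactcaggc
MYBBP1A: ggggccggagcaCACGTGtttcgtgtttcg

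These stretches lie at chr19:39846356-39846385 (FBL, minus strand), chr12:6568242-6568271 (NOP2, minus), chr6:41921515-41921544 (BYSL, plus), chr4:2262330-2262359 (MXD4, minus), chr3:51941892-51941921 (RRP9, minus), chr22:30591880-30591909 (PES1, minus), chr12:101280083-101280112 (UTP20, plus) and chr17:4555340-4555369 (MYBBP1A, minus). Counted from 1 at the 5′ end of the window, where base 251 is the first of the transcript, the E-box of MXD4 began at base 13 and lay far upstream. The other 7 began between base 241 (UTP20) and base 286 (NOP2), close to the transcript start. A match of letters is a description of the sequence and says nothing of binding in these cells.

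As a check of the cells, 8 of 10 luminal prostate markers had a named probe, with mean log2 values between 6.59 for KLK3 and 12.21 for KRT18, so that KLK3, which encodes prostate-specific antigen, lay close to the array median of 6.30. The 12 markers of fibroblasts, endothelium and blood averaged between 6.17 and 7.38, and VWF of endothelium was the brightest of them. TMPRSS2 was called higher in nucARRB1 and FOLH1 and VWF in wtARRB1, and their part in the results was not tested. The 4 ARRB1 probes do not show the fusions. None was called higher in nucARRB1 or wtARRB1 than in GFP control, and the brightest was lower in wtARRB1 by the limma test (log2 change −0.76, adjusted p = 0.00714). The fusions were cloned from a synthetic ARRB1 sequence and whether the probes match it is not known here, so these values check no label.

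Many of the ribosome assembly genes were lower in both ARRB1 lines, and PA2G4, NCL, NOP56 and FBL were among those with the largest falls. A gene was called when its Benjamini-Hochberg adjusted p over all 48801 probes, from limma, was below the study's false discovery rate of 1%, and each gene was read from its brightest probe. In nucARRB1 against GFP control, 14 of 34 members (41.2%) were called lower, beside 5.89% of all named genes, and 1 was called higher, beside 4.97% of all genes. The median log2 change of the members was −0.44, beside −0.01 for all genes, a value largely set by the quantile normalisation of the arrays. In wtARRB1 against GFP control, 15 members (44.1%) were called lower, beside 4.7% of all genes, and 0 were called higher, beside 4.26%, with a median log2 change of −0.40, which was −0.65 with the arrays scaled on their medians. At an unadjusted p below 0.05 the count in either direction was 23 members in nucARRB1, beside 27.7% of all genes, and 24 in wtARRB1, beside 26.5%. Bright genes were called more often in general. Of the 5001 genes with a mean log2 above 8, 16.6% were called lower in nucARRB1 and 13.3% in wtARRB1, whereas of the 23 members above 8, 14 were called lower in each of the comparisons. Both comparisons share the 3 GFP arrays, and the members were chosen with earlier results of these data known. With wtARRB1 replicate 2 left out, the median log2 change of the members in wtARRB1 was −0.45. In nucARRB1 it was −0.47 with nucARRB1 replicate 1 left out. Each of these fits left a single array in the ARRB1 line concerned, and fewer members were called lower. In bulk RNA, fewer cells that express a gene and less of its RNA per cell cannot be told apart.

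**Figure D1:**
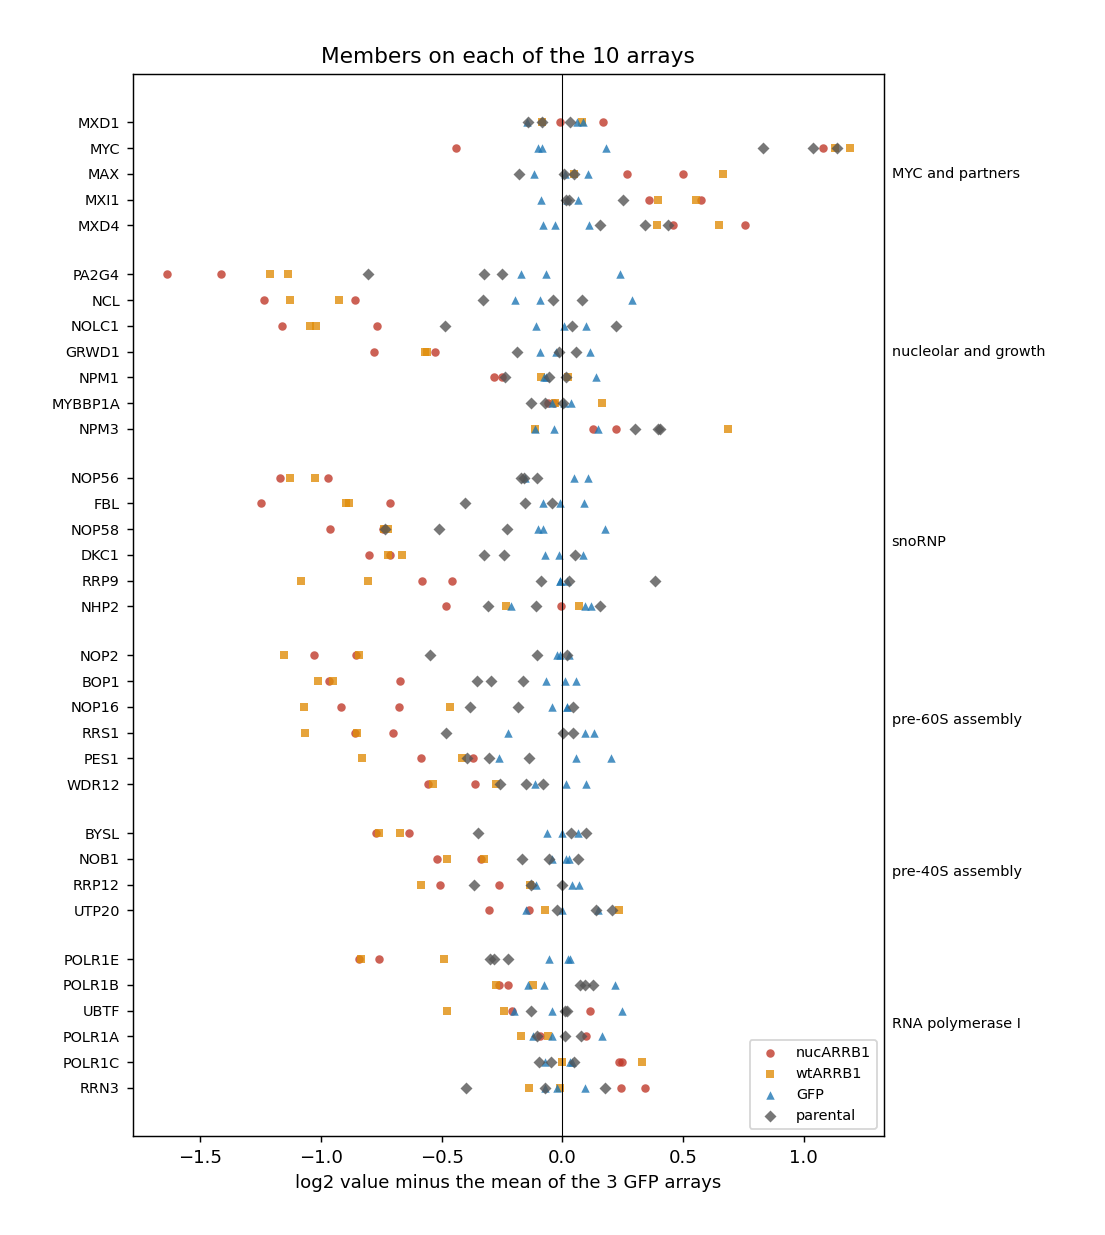
Log2 value of each of the 34 members on each of the 10 arrays, minus the mean of the 3 GFP arrays (horizontal axis), ordered within roles by the change in nucARRB1 (vertical axis); circles are nucARRB1, squares wtARRB1, triangles GFP and diamonds parental arrays. For 16 members all 4 ARRB1 arrays lie left of all 6 control arrays.

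Array by array, the 4 ARRB1 arrays lay below all 6 control arrays for 16 of the 34 members, beside 8.11% of all genes, and above all 6 for 1 member, MXI1, beside 6.29% of all genes. The arrays overlapped for the other 17. Averaged over the 29 measured nucleolar members, the 2 nucARRB1 arrays lay 0.54 and 0.52 below the mean of the GFP arrays on the log2 scale. The wtARRB1 arrays lay at −0.54 and −0.51 on the same scale, the GFP arrays at 0.07, −0.04 and −0.04, and the parental arrays at −0.24, −0.04 and −0.05. All 4 ARRB1 arrays lay below every control array, and parental replicate 1 was the control nearest to them. The mean over all genes stayed within 0.02 of the GFP mean on every array. Quantile normalisation gave every array the same distribution of values, so this mean says nothing of total expression. Leaving out parental replicate 1 gave 17 members below and 2 above, with no share of all genes computed for that setting. Dropping an array cannot lower such counts, so they say nothing of stability.

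**Figure D2:**
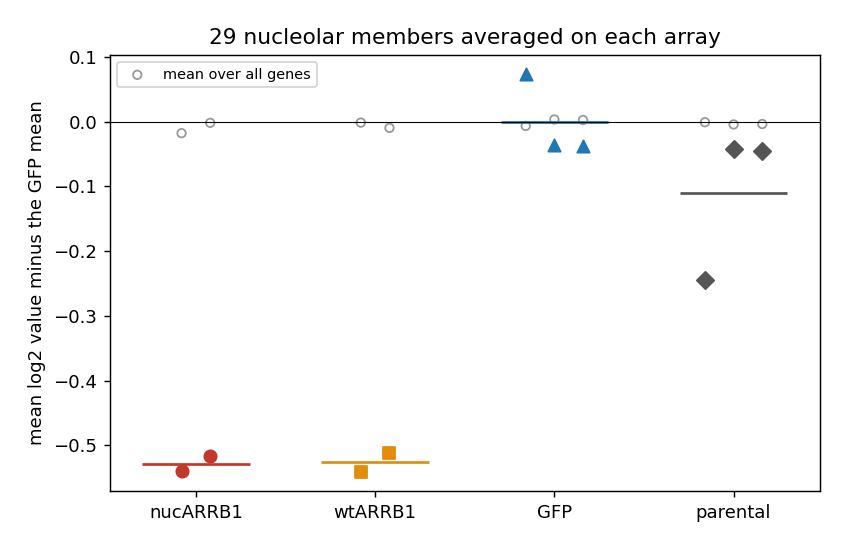
Mean log2 value of the 29 measured nucleolar members on each array minus the GFP mean (vertical axis) by group (horizontal axis), with lines for group means and open grey circles for the mean over all genes. The 4 ARRB1 arrays lie between −0.54 and −0.51, the 6 control arrays between −0.24 and 0.07. The level of the grey circles is largely set by quantile normalisation.

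MYC itself was called in neither ARRB1 line. Its brighter probe gave log2 values of 9.47 and 11.00 in nucARRB1, 11.05 and 11.11 in wtARRB1, 10.10, 9.83 and 9.82 in GFP control and 10.75, 11.05 and 10.95 in parental cells. The wtARRB1 arrays lay with the parental arrays and above all GFP arrays, whereas nucARRB1 replicate 1 lay below every control array and replicate 2 among the parental arrays. The nucARRB1 arrays were apart on the dimmer MYC probe as well, with 7.92 and 9.12 in nucARRB1, 8.99 and 9.18 in wtARRB1, 8.59, 8.06 and 7.84 in GFP control and 8.62, 8.93 and 9.06 in parental cells. On that probe replicate 1 lay among the GFP arrays and replicate 2 above all parental arrays. The gap of 1.52 between the nucARRB1 arrays on the brighter probe was matched or exceeded by only 61 genes (0.327%), and the next member, FBL, had a gap of 0.53.

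The tests of MYC moved with this split. In nucARRB1 the log2 change against GFP control was 0.32 ± 0.28 (SE; limma adjusted p = 0.686). It was 1.08 without nucARRB1 replicate 1 and −0.44 without nucARRB1 replicate 2, each value resting on a single nucARRB1 array. Against parental cells MYC in nucARRB1 changed by −0.68 (adjusted p = 0.213). In wtARRB1 the log2 change against GFP control was 1.16 ± 0.28 (SE; adjusted p = 0.0131), above the 1% threshold, and 0.16 against parental cells (adjusted p = 0.916). With only the wtARRB1 and GFP arrays in the limma fit, without the spread of the nucARRB1 arrays, the same change of 1.16 had an adjusted p of 3.32e-05.

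Between the controls, MYC was not called in the fit of all arrays. GFP control against parental cells gave a log2 change of −1.004 ± 0.25 (SE; limma adjusted p = 0.175 in the fit of all arrays), with all 3 GFP arrays below all 3 parental arrays. With only the GFP and parental arrays in the fit the adjusted p was 0.000117. The sign of the MYC change in nucARRB1 differed between the control lines, but neither change was called and the nucARRB1 arrays were split. In wtARRB1 the change was 1.16 against GFP control and 0.16 against parental cells, neither called in the fit of all arrays.

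**Figure D3:**
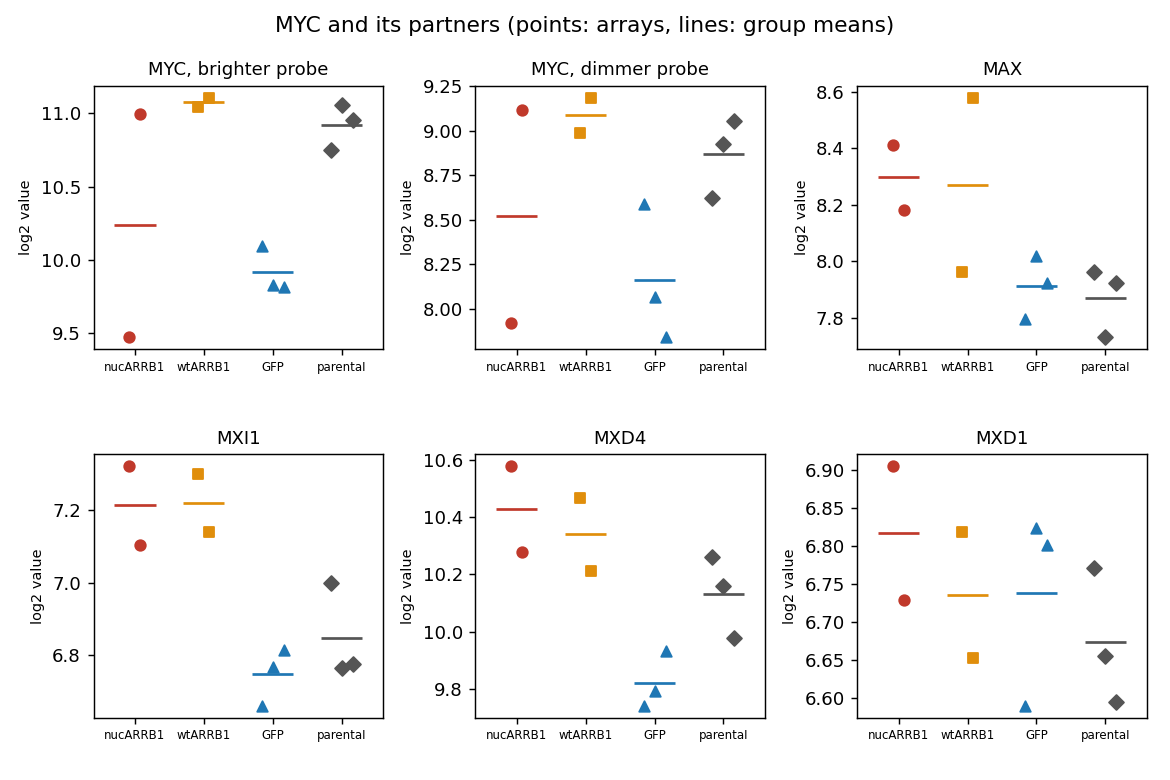
Log2 values of MYC (both probes), MAX, MXI1, MXD4 and MXD1 (vertical axes, each with its own range) in nucARRB1, wtARRB1, GFP control and parental cells; points are arrays and lines group means. The nucARRB1 arrays of MYC are split (9.47 and 11.00 on the brighter probe), and those of MXI1 lie above every control array.

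Of the partners that dimerise with MAX in place of MYC, MXD4, in nucARRB1, was the only member called higher. Its log2 values were 10.58 and 10.28 in nucARRB1, 10.47 and 10.21 in wtARRB1, 9.74, 9.79 and 9.93 in GFP control and 10.26, 10.16 and 9.98 in parental cells. The ARRB1 arrays lay above all GFP arrays but overlapped the parental arrays. The log2 change was 0.61 ± 0.13 in nucARRB1 (SE; limma adjusted p = 0.00507), a 1.53-fold rise, and 0.52 ± 0.13 in wtARRB1 (adjusted p = 0.0181), which missed the threshold. The call in nucARRB1 was lost when the arrays were scaled on their medians (log2 change 0.39, adjusted p = 0.173) and against parental cells (0.30, adjusted p = 0.273).

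MXI1, another repressor of MYC sites, gave 7.32 and 7.11 in nucARRB1, 7.30 and 7.14 in wtARRB1, 6.66, 6.77 and 6.81 in GFP control and 7.00, 6.76 and 6.78 in parental cells. All 4 ARRB1 arrays lay above the 6 controls, by 0.11 at the nearest pair. The log2 change was 0.47 ± 0.12 in both lines (SE; limma adjusted p = 0.0168 in nucARRB1 and 0.0177 in wtARRB1), short of the 1% threshold, and the 3 dimmer MXI1 probes were at or below 6.23 on average and not called. Its level was low, so the size of its change is uncertain.

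MAX, the shared partner, gave 8.41 and 8.18 in nucARRB1, 7.96 and 8.58 in wtARRB1, 7.80, 8.02 and 7.92 in GFP control and 7.96, 7.73 and 7.92 in parental cells. The wtARRB1 arrays overlapped the controls, and the log2 changes of 0.38 in nucARRB1 (limma adjusted p = 0.178) and 0.36 in wtARRB1 (adjusted p = 0.241) were not called. MXD1, a repressor that is induced as many cells differentiate, was dim at 6.90 and 6.73 in nucARRB1, 6.82 and 6.65 in wtARRB1, 6.59, 6.82 and 6.80 in GFP control and 6.77, 6.65 and 6.60 in parental cells, and its groups overlapped throughout.

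Among the nucleolar and growth-related members, 4 of 7 measured were called lower in nucARRB1 and the same number in wtARRB1. PA2G4, a growth regulator also known as EBP1 that associates with ribosome precursors, had the largest fall of all members. Its log2 values were 10.27 and 10.04 in nucARRB1, 10.47 and 10.54 in wtARRB1, 11.92, 11.51 and 11.61 in GFP control and 10.88, 11.43 and 11.35 in parental cells. Every ARRB1 array lay below every control array, by 0.33 at the nearest pair. The log2 change was −1.53 ± 0.16 in nucARRB1 (SE; limma adjusted p = 1.16e-05), 2.88-fold lower, and −1.17 ± 0.16 in wtARRB1 (adjusted p = 0.000172), 2.26-fold lower. In GFP control against parental cells PA2G4 gave 0.46 and was not called (unadjusted p = 0.00525, adjusted p = 0.343), and against parental cells its change of −0.71 in wtARRB1 was not called (adjusted p = 0.0131).

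NCL, nucleolin, the abundant RNA-binding protein of the nucleolus, gave 10.73 and 11.11 in nucARRB1, 11.04 and 10.84 in wtARRB1, 12.26, 11.77 and 11.87 in GFP control and 11.64, 11.93 and 12.05 in parental cells. The ARRB1 arrays lay 0.53 or more below every control, and NCL was 2.07-fold lower in nucARRB1 (log2 change −1.05 ± 0.16, SE; limma adjusted p = 0.00035) and 2.04-fold lower in wtARRB1 (−1.03 ± 0.16; adjusted p = 0.000539). Its dimmer probe was not called in either line, with −0.53 in nucARRB1. NOLC1, a chaperone of snoRNPs also known as Nopp140, fell by 0.96 in nucARRB1 (limma adjusted p = 0.00115) and by 1.03 in wtARRB1 (adjusted p = 0.000838). GRWD1, a WD-repeat protein of ribosome assembly, fell by 0.65 in nucARRB1 and by 0.56 in wtARRB1 on the log2 scale. The arrays of NOLC1 and GRWD1 did not overlap the controls either.

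The 3 measured members of this nucleolar and growth-related role that were not called included the brightest member. NPM1, nucleophosmin, averaged 13.91 ± 0.02 in nucARRB1, 14.15 ± 0.08 in wtARRB1 and 14.18 ± 0.12 in GFP control on the log2 scale (SD, n = 2, 2 and 3 arrays), near the upper end of the scale. Its changes were −0.27 in nucARRB1 and −0.03 in wtARRB1. NPM3, a relative of nucleophosmin, changed by 0.17 in nucARRB1 and 0.29 in wtARRB1, and MYBBP1A, which holds back ribosomal RNA synthesis, changed by −0.05 in nucARRB1 and 0.07 in wtARRB1, at a dim mean of 6.74.

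The snoRNP members included NOP56 and FBL, among the largest falls. Of the 6 measured members, 4 were called lower in nucARRB1 (median log2 change −0.81) and 5 in wtARRB1 (median −0.81). NOP56, which with NOP58 holds the guide RNA of box C/D particles, gave 11.03 and 10.83 in nucARRB1, 10.87 and 10.97 in wtARRB1, 12.10, 12.05 and 11.84 in GFP control and 11.89, 11.83 and 11.84 in parental cells. Its gap of 0.80 between the highest ARRB1 and the lowest control array was the widest of the 16 members that did not overlap. The log2 change was −1.07 ± 0.11 in nucARRB1 (SE; limma adjusted p = 1.37e-05) and −1.08 ± 0.11 in wtARRB1 (adjusted p = 2.18e-05), and both held when any 1 array was left out. A further NOP56 probe was called lower as well, by 0.96 in nucARRB1 (adjusted p = 0.00452) and 1.05 in wtARRB1 (adjusted p = 0.00265).

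FBL, fibrillarin, the methyltransferase of the same particles, gave 10.70 and 11.23 in nucARRB1, 11.06 and 11.05 in wtARRB1, 12.03, 11.86 and 11.93 in GFP control and 11.54, 11.79 and 11.90 in parental cells. The ARRB1 arrays lay 0.31 or more below the controls. FBL was 1.97-fold lower in nucARRB1 (log2 change −0.98 ± 0.15, SE; limma adjusted p = 0.00027) and 1.85-fold lower in wtARRB1 (−0.89 ± 0.15; adjusted p = 0.00081). FBL is among the members whose E-box is printed above.

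NOP58, the partner of NOP56, gave 8.25 and 8.03 in nucARRB1, 8.27 and 8.25 in wtARRB1, 9.17, 8.91 and 8.89 in GFP control and 8.48, 8.26 and 8.76 in parental cells, so that parental replicate 2 lay among the wtARRB1 arrays. It was called lower against GFP control in nucARRB1 (−0.85; limma adjusted p = 0.000702) and wtARRB1 (−0.73; adjusted p = 0.00307). Against parental cells it was not called in nucARRB1 (−0.36; adjusted p = 0.196) or wtARRB1 (−0.24; adjusted p = 0.554), and GFP control against parental cells gave 0.49 (unadjusted p = 0.00135, adjusted p = 0.199).

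DKC1, dyskerin, the pseudouridine synthase of box H/ACA particles, gave 11.45 and 11.54 in nucARRB1, 11.54 and 11.59 in wtARRB1, 12.19, 12.34 and 12.24 in GFP control and 11.93, 12.31 and 12.02 in parental cells, without overlap. It fell by 0.76 in nucARRB1 (limma adjusted p = 0.000494) and by 0.69 in wtARRB1 (adjusted p = 0.00136). NHP2, a partner of dyskerin in the same particles, was not called, with −0.24 in nucARRB1 and −0.08 in wtARRB1 and overlapping arrays. RRP9, a protein of the U3 particle, was called in wtARRB1 and missed the threshold in nucARRB1.

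RRP9 gave 7.15 and 7.27 in nucARRB1, 6.93 and 6.65 in wtARRB1, 7.72, 7.72 and 7.75 in GFP control and 7.64, 8.11 and 7.76 in parental cells, with the wtARRB1 arrays lowest. Its log2 change was −0.52 ± 0.14 in nucARRB1 (SE; limma adjusted p = 0.0205) and −0.94 ± 0.14 in wtARRB1 (adjusted p = 0.00027). The difference between the ARRB1 lines, 0.42 ± 0.15 higher in nucARRB1, did not pass the threshold (adjusted p = 0.49). With only the nucARRB1 and GFP arrays in the fit, or against parental cells (−0.63; adjusted p = 0.0084), RRP9 was also called lower in nucARRB1.

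Of the 6 measured members of large subunit (pre-60S) assembly, 4 were called lower in each ARRB1 line, with median log2 changes of −0.79 in nucARRB1 and −0.86 in wtARRB1. NOP2, a methyltransferase of large subunit ribosomal RNA, gave 10.38 and 10.56 in nucARRB1, 10.57 and 10.26 in wtARRB1, 11.40, 11.44 and 11.39 in GFP control and 10.86, 11.43 and 11.31 in parental cells. Parental replicate 1 stood between the ARRB1 arrays and the other controls. The log2 change was −0.94 ± 0.15 in nucARRB1 (SE; limma adjusted p = 0.00046) and −0.996 ± 0.15 in wtARRB1 (adjusted p = 0.000376). With its 3 probes averaged, the call in nucARRB1 was lost (−0.49; adjusted p = 0.0122).

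BOP1 forms the PeBoW complex with PES1 and WDR12. It gave 10.19 and 10.48 in nucARRB1, 10.20 and 10.14 in wtARRB1, 11.21, 11.16 and 11.08 in GFP control and 10.80, 10.99 and 10.86 in parental cells. Its arrays did not overlap, and it was 1.76-fold lower in nucARRB1 (log2 change −0.82 ± 0.12, SE; limma adjusted p = 0.000176) and 1.97-fold lower in wtARRB1 (−0.98 ± 0.12; adjusted p = 5.22e-05).

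The other 2 PeBoW proteins changed by less and were not called. PES1 was dim, at 6.93 and 6.71 in nucARRB1, 6.89 and 6.47 in wtARRB1, 7.50, 7.04 and 7.36 in GFP control and 7.00, 7.16 and 6.91 in parental cells, with changes of −0.48 in nucARRB1 (limma adjusted p = 0.0636) and −0.62 in wtARRB1 (adjusted p = 0.0155). WDR12 gave 9.21 and 9.41 in nucARRB1, 9.23 and 9.49 in wtARRB1, 9.78, 9.87 and 9.65 in GFP control and 9.51, 9.69 and 9.62 in parental cells. Its arrays were separated by only 0.02 at the nearest pair, and the changes were −0.46 in nucARRB1 (adjusted p = 0.0211) and −0.41 in wtARRB1 (adjusted p = 0.0482). A further WDR12 probe of like brightness went the other way in wtARRB1, by 0.11 (adjusted p = 0.836). In nucARRB1 that probe gave 9.44 and 9.40, among the GFP arrays (9.25, 9.63 and 9.40).

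RRS1, which helps to bring the smallest ribosomal RNA into the large subunit, gave 9.15 and 9.31 in nucARRB1, 9.16 and 8.94 in wtARRB1, 10.10, 10.14 and 9.78 in GFP control and 9.52, 10.05 and 10.01 in parental cells. It fell by 0.78 in nucARRB1 (limma adjusted p = 0.00313) and by 0.96 in wtARRB1 (adjusted p = 0.000766). NOP16, a nucleolar protein of large subunit assembly, gave 8.75 and 8.51 in nucARRB1, 8.36 and 8.96 in wtARRB1, 9.45, 9.45 and 9.39 in GFP control and 9.05, 9.25 and 9.48 in parental cells. The groups did not overlap, but wtARRB1 replicate 2 came within 0.08 of parental replicate 1. NOP16 was called lower in nucARRB1 (−0.80; adjusted p = 0.00321) and wtARRB1 (−0.77; adjusted p = 0.0053), and against parental cells in neither line.

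**Figure D4:**
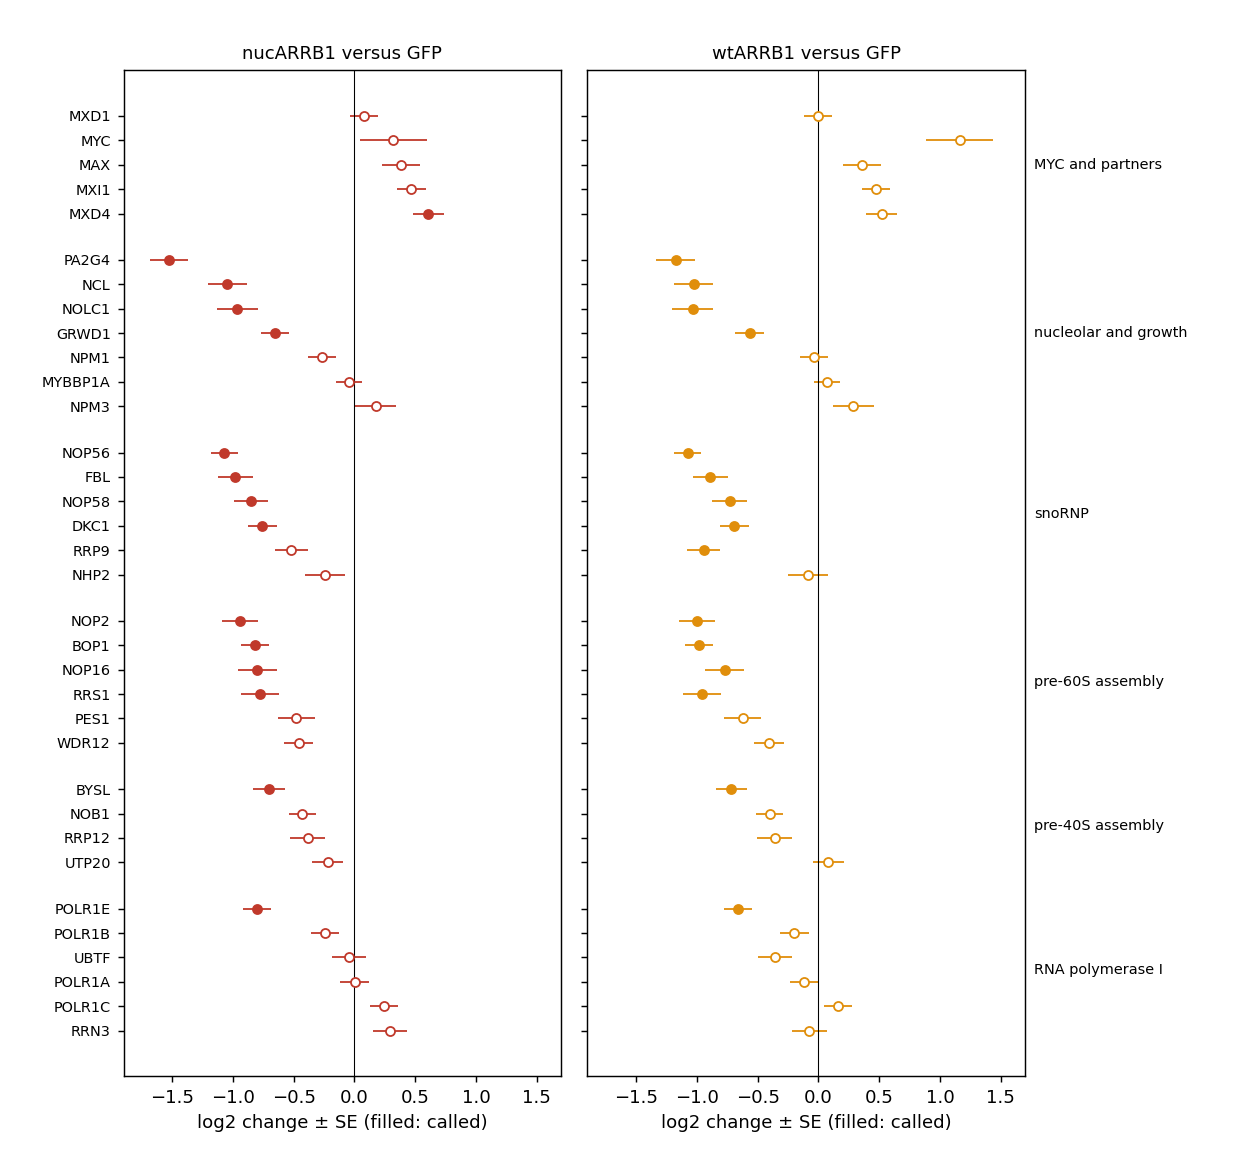
Log2 change of each member against GFP control, with its standard error, in nucARRB1 (left panel) and wtARRB1 (right panel); members run down the page by role, and filled points were called. The called changes run from −1.53 (PA2G4 in nucARRB1) to 0.61 (MXD4 in nucARRB1).

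Small subunit (pre-40S) assembly held 1 called member of 4 in each line. BYSL, bystin, which helps small subunit precursors to mature, gave 8.82 and 8.96 in nucARRB1, 8.83 and 8.92 in wtARRB1, 9.65, 9.53 and 9.59 in GFP control and 9.24, 9.63 and 9.69 in parental cells. Its ARRB1 arrays kept within a narrow range below all controls, and it fell by 0.70 in nucARRB1 (limma adjusted p = 0.00163) and by 0.72 in wtARRB1 (adjusted p = 0.00182).

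NOB1, the nuclease that trims the end of the small subunit RNA, gave 7.47 and 7.29 in nucARRB1, 7.33 and 7.48 in wtARRB1, 7.77, 7.83 and 7.84 in GFP control and 7.87, 7.76 and 7.64 in parental cells. The arrays did not overlap, but its changes of −0.43 in nucARRB1 (limma adjusted p = 0.0208) and −0.40 in wtARRB1 (adjusted p = 0.0352) missed the threshold. After median scaling NOB1 was called lower in nucARRB1 (−0.55; adjusted p = 0.004) and wtARRB1 (−0.58; adjusted p = 0.00312). RRP12, a factor in the export of precursors, changed by −0.38 in nucARRB1 and −0.36 in wtARRB1 with overlapping arrays, and UTP20, of the small subunit processome, by −0.22 in nucARRB1 and 0.08 in wtARRB1 at a mean of 6.43, close to the array median.

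RNA polymerase I and its factors were the role with the smallest median change, −0.02 in nucARRB1 and −0.16 in wtARRB1. A single member of 6 was called in each line. POLR1E, a subunit also known as PAF53, gave 9.11 and 9.19 in nucARRB1, 9.12 and 9.46 in wtARRB1, 9.98, 9.90 and 9.98 in GFP control and 9.65, 9.67 and 9.73 in parental cells. The parental arrays lay between those of the ARRB1 lines and GFP control. POLR1E was 1.74-fold lower in nucARRB1 (log2 change −0.80 ± 0.11, SE, limma adjusted p = 0.000202) and 1.58-fold lower in wtARRB1 (−0.66 ± 0.11, adjusted p = 0.00128). Against parental cells it was called in nucARRB1 (−0.53, adjusted p = 0.00869) and not in wtARRB1 (−0.39, adjusted p = 0.0654). On its dimmer probe the wtARRB1 arrays (7.87 and 8.04) overlapped the GFP arrays (8.46, 7.98 and 8.24), and the nucARRB1 arrays (7.36 and 7.90) lay below them. With its 2 probes averaged, the call in wtARRB1 was lost (−0.47, limma adjusted p = 0.025).

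RRN3, the initiation factor TIF-IA, gave 7.44 and 7.35 in nucARRB1, 6.97 and 7.09 in wtARRB1, 7.19, 7.08 and 7.03 in GFP control and 6.70, 7.28 and 7.03 in parental cells. The nucARRB1 arrays were the highest, but the change of 0.29 was not called (limma adjusted p = 0.303), nor was that of −0.07 in wtARRB1. Of the large catalytic subunits, POLR1B changed by −0.24 in nucARRB1 and −0.20 in wtARRB1, and POLR1A by 0.00 in nucARRB1 and −0.12 in wtARRB1. POLR1A lay at a mean of 6.21, below the array median, so that its value sets no limit on a change. POLR1C, a subunit shared with RNA polymerase III, was bright at a mean of 10.65 and changed by 0.24 in nucARRB1 (95% interval −0.00 to 0.49) and 0.16 in wtARRB1. UBTF, the factor that keeps ribosomal RNA genes open, changed by −0.05 in nucARRB1 and −0.36 in wtARRB1, and none of its 4 probes was called.

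Some of these calls were lost when 1 array was left out. Without nucARRB1 replicate 1, limma no longer gave the calls in nucARRB1 of NOLC1 (limma adjusted p = 0.0246) and BYSL (adjusted p = 0.0235). GRWD1 was lost without nucARRB1 replicate 1 or GFP replicate 3 (adjusted p up to 0.0338), RRS1 and MXD4 without nucARRB1 replicate 1, GFP replicate 1 or GFP replicate 2 (up to 0.037 for RRS1 and 0.104 for MXD4), and NOP16 without nucARRB1 replicate 2 or any GFP array (up to 0.0343). In wtARRB1, the calls of NCL, NOP2 and RRS1 were lost without wtARRB1 replicate 2 (adjusted p = 0.0112, 0.0102 and 0.0158), that of POLR1E without wtARRB1 replicate 1 (0.0372) and that of DKC1 without either (up to 0.018). NOP58 and BYSL were lost without either wtARRB1 array or GFP replicate 1 (up to 0.0278 for NOP58 and 0.0246 for BYSL). GRWD1 was lost without either wtARRB1 array, any GFP array or parental replicate 2 (up to 0.0433), and NOP16 without wtARRB1 replicate 1, any GFP array or parental replicate 2 (up to 0.134). All of these stayed lower in direction apart from MXD4, which stayed higher. Leaving out an ARRB1 array left a single array in its line, so those fits took their spread from the other groups.

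Setting the ARRB1 lines against each other compared the nuclear fusion with the unrestricted one. These were separate stable lines, and the ARRB1 probes did not show the level of either fusion. Confinement to the nucleus therefore cannot be told apart from other differences between the lines. No member passed the threshold in nucARRB1 against wtARRB1 (0 called by limma in either direction, beside 0.0161% lower and 0.0482% higher of all genes), and 4 had an unadjusted p below 0.05, beside 10.1% of all genes. These were MYC (−0.84), RRP9 (0.42), UTP20 (−0.30) and RRN3 (0.37), and the median over the members was −0.02. With nucARRB1 replicate 2 left out, the log2 change of MYC in nucARRB1 against wtARRB1 was −1.60, which rests on the single low array. With 2 arrays in each line, the test gave no call and did not show that the lines act alike.

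GFP control against parental cells likewise gave 0 called members by limma in either direction, beside 0.0429% lower and 0.00536% higher of all genes, with a median of 0.08 and 7 members at an unadjusted p below 0.05, beside 10% of all genes. Those were MYC, MXD4 and NPM3, lower in GFP control, and PA2G4, NOP58, BOP1 and POLR1E, higher in GFP control. With parental cells in place of GFP control, 12 members were called lower in nucARRB1, beside 3.56% of all genes, and 9 in wtARRB1, beside 2.39%. None was called higher, beside 3.09% of all genes in nucARRB1 and 2.48% in wtARRB1. Those in nucARRB1 were PA2G4, NCL, NOLC1, GRWD1, NOP56, FBL, DKC1, RRP9, NOP2, BOP1, BYSL and POLR1E. Those in wtARRB1 were NCL, NOLC1, NOP56, FBL, RRP9, NOP2, BOP1, RRS1 and BYSL, and MXD4 was not called in either line.

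The E-box was found in members that fell and in members that were not called. It was present in 3 of the 9 windows of members called lower in nucARRB1 (33.3%) and in 4 of the 17 of members not called (23.5%). NOLC1, NOP58, BOP1, RRS1 and POLR1E were also called lower but had no matched window. MYC and RRP12, not called, had none either, so the missing windows fell mainly on members called lower. The FBL, NOP2 and BYSL stretches printed above belong to members that fell, that of MXD4 to the member that rose, and those of RRP9, PES1, UTP20 and MYBBP1A to members not called in nucARRB1. These counts are a description of small groups, and no test was made of them.

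Other genes of the same pathways were read from 7 lists of 155 genes outside the members, of which 149 were measured. The lists were chosen with earlier results of these data known, so their counts are no independent support. In nucARRB1 against GFP control, 43 were called lower and 3 higher, with a median log2 change of −0.33, and in wtARRB1 against GFP control 35 were called lower and 3 higher, with a median of −0.31. Called lower of all genes were 5.89% in nucARRB1 and 4.7% in wtARRB1, and of genes with a mean log2 above 8 they were 16.6% in nucARRB1 and 13.3% in wtARRB1. The lists of subunit assembly and of ribosomal RNA trimming held most of them. Of 36 small subunit genes 13 were called lower in each line, of 37 large subunit genes 11 in nucARRB1 and 9 in wtARRB1, and of 12 exosome and processing genes 6 in nucARRB1 and 5 in wtARRB1. EXOSC6, a subunit of the RNA exosome, gave 9.58 and 9.71 in nucARRB1, 9.95 and 9.52 in wtARRB1, 10.86, 10.95 and 10.94 in GFP control and 10.35, 10.51 and 10.49 in parental cells, without overlap. RRP7A of the small subunit processome fell by 1.34 in nucARRB1, where its arrays were apart (8.63 and 9.39). GTPBP4, a large subunit GTPase, fell by 1.08 in nucARRB1. NMD3, the export adaptor of the large subunit, rose by 0.81 in nucARRB1 (limma adjusted p = 0.00706). In wtARRB1 NMD3 gave 8.08 and 8.88, overlapping GFP control (8.03, 8.28 and 8.32), and no gene of the large subunit list was called higher.

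The lists for polymerase I, snoRNPs and the MYC network gave smaller counts, some near these shares of all genes. Of 13 further polymerase I genes 1 was called lower (7.69%) and 1 higher in each line, with POLR1H, a subunit, higher by 0.68 in nucARRB1 (limma adjusted p = 0.00369). Of 12 further snoRNP genes, 2 were called lower in nucARRB1 (16.7%) and 1 in wtARRB1 (8.33%), and ZNHIT3, an assembly factor, was higher by 0.59 in nucARRB1. Of 15 further MYC network genes, 3 were called lower in nucARRB1, among them SKP2, a ubiquitin ligase subunit that acts on MYC (−1.60; adjusted p = 2.74e-05), and MXD3 (−1.40; adjusted p = 0.000141), and 1 in wtARRB1. Of 24 MYC targets outside the nucleolus, 7 were called lower in nucARRB1 (29.2%), PTMA and TFRC among them, and 5 lower (20.8%) and 1 higher in wtARRB1. The shares called lower were near those of the large subunit list, 29.7% in nucARRB1 and 24.3% in wtARRB1. None of the 149 was called between the ARRB1 lines or between the control lines.

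**Figure D5:**
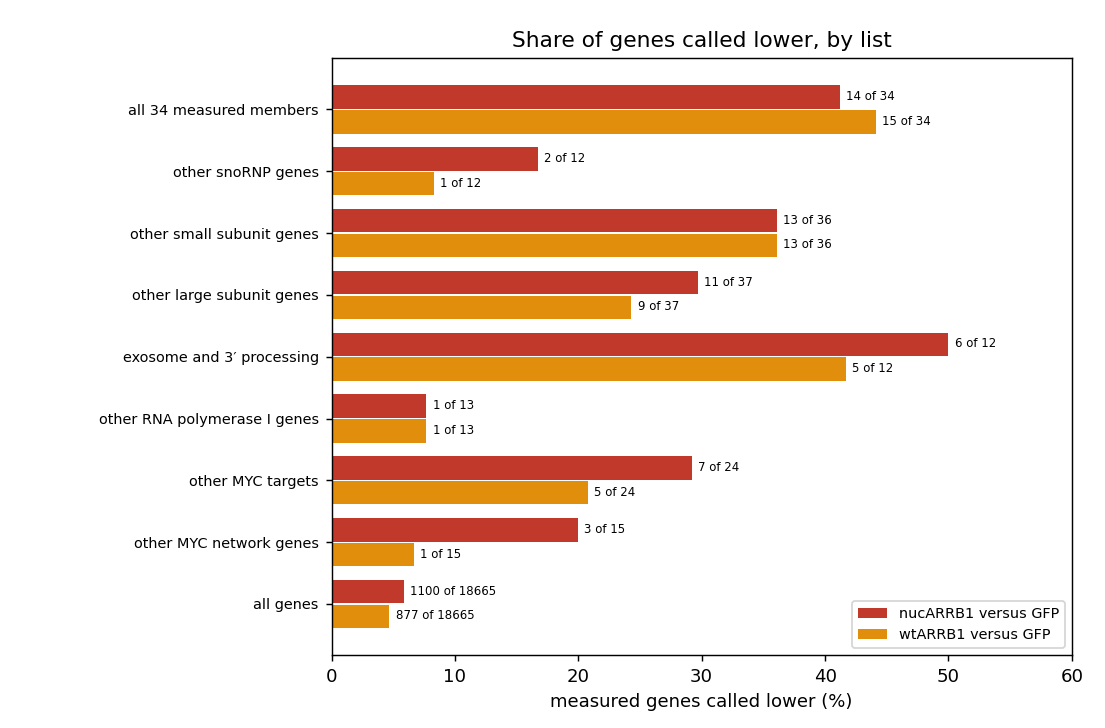
Percentage of measured genes called lower against GFP control (horizontal axis) in each list (vertical axis), with nucARRB1 bars above wtARRB1 bars and the counts beside them. The members reach 41.2% in nucARRB1 and 44.1% in wtARRB1, and all named genes 5.89% in nucARRB1 and 4.7% in wtARRB1.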

How the data were processed

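Biotinylated cRNA from 10 C4-2 arrays was hybridised to Illumina BeadChips. Per the study's methods, the authors pre-processed and quantile-normalised the arrays in R with beadarray. The deposited tables hold log2 values per probe before and after quantile normalisation, and background correction and detection p-values were not given in the sources used here. The deposited log2 values before normalisation (array medians 6.22 to 6.45) were quantile-normalised in limma 3.58.1 (R 4.3.3), which gave values within 0.0232 of the authors' normalised log2 values. A model of 4 group means was fitted to all 10 arrays and all 48801 probes (lmFit, eBayes, two-sided, 6 residual and 9.82 prior degrees of freedom), and p-values were adjusted over all probes. Standard errors are those of this fit, and SDs those of the arrays in a group. Probes were named by Entrez ID from the platform annotation (27576 with 1 gene, 13 with several, 21212 not named here) with symbols from RefSeq, and the brightest of several probes stood for a gene. Arrays have no counting depth, and their small number limits the precision. The fit was tested on simulated data.

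The members and lists were chosen with earlier results of these data known. Every member is named. Values on every array were to be given for MYC and its partners, for the 2 members of each other role with the largest change in nucARRB1, and for any member called between the ARRB1 or the control lines, and other members with array values were chosen after their values were seen. From each outside list, up to 2 lower and 2 higher genes with the largest called change were eligible. Of the sequences, 4 follow a rule (the largest change among members with an E-box) and 4 were added so that all 8 are shown. Alternatives were the authors' normalised values, median scaling, a false discovery rate of 5%, the mean of a gene's probes, dropping dim probes, a replicate block, a fit of the compared arrays alone, other controls and leaving out each array.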

Additional observations from a re-analysis of the deposited data

How the results depend on the processing

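With the authors' normalised values and without dim probes (POLR1A is then dropped), no count or call changed. Median scaling gave 0 members higher in nucARRB1 and median changes of −0.567 in nucARRB1 and −0.651 in wtARRB1. At a false discovery rate of 5%, 2 members were higher in nucARRB1 and 3 in wtARRB1. A fit of the compared arrays alone called 1 member higher in wtARRB1 and 1 lower in GFP control than in parental cells, MYC in both cases. Against parental cells 0 were higher in nucARRB1 (median −0.351) and 9 lower in wtARRB1 (median −0.312), and against the mean of both controls 0 were higher in nucARRB1 (median −0.358). MYC in nucARRB1 turned to −0.684 against parental cells, −0.182 against the mean of controls, and −0.442 to 1.08 on leaving out 1 array (the lower without nucARRB1 replicate 2). MXD1, near 0, turned in wtARRB1 (0.0617 against parental cells, 0.0295 against the mean of controls, −0.0855 to 0.0815 on leaving out 1 array) and in nucARRB1 (−0.00985 to 0.167), and RRN3 in wtARRB1 was 0.0249 against parental cells. The causes were not tested. The share of all genes called was computed only for the main fit and with parental cells as the control. Counts of members under the other settings have no such share beside them.

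Leaving out 1 array at a time, 10 to 15 members were lower and 0 to 1 higher in nucARRB1 (median −0.475 to −0.413), and 8 to 16 lower and 0 to 2 higher in wtARRB1 (median −0.474 to −0.403). Between the ARRB1 lines 0 to 1 were lower (median −0.0868 to 0.0150), and between the control lines 0 to 1 (median 0.0447 to 0.133). From 16 to 18 members lay below the controls without overlap and 1 to 3 above, an alternative chosen after seeing the data. Dropping an array from the same values cannot lower these overlap counts, so their ranges say nothing of stability. Of the 15 calls in nucARRB1, 9 held in all of these and MXD4, NOLC1, GRWD1, NOP16, RRS1 and BYSL did not. In wtARRB1, PA2G4, NOLC1, NOP56, FBL, RRP9 and BOP1 held, and 9 did not.

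Nothing in the labels pairs arrays. Between groups, the residuals of same-numbered arrays correlated between −0.238 and 0.139, and those of differently numbered arrays between −0.168 and 0.238. In a group of 2 arrays the residuals mirror each other, so these ranges say little of pairing. With the replicate number as a block, 12 members were lower and 0 higher in nucARRB1 and 13 lower in wtARRB1; MXD4, NOP16 and RRS1 lost their calls in nucARRB1, and GRWD1 and NOP16 in wtARRB1. Without detection p-values, changes of dim members may be understated.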
